A study of Mus musculus with 1666 samples.

Results

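Sox10-positive cells in a study of the embryonic mouse whisker follicle were chosen by their measured levels of 3 genes. Of 1614 cells, 57 met the rule of Trp63 under 10 TPM with Sox10 at 10 TPM or more. TPM is a transcript abundance corrected for the length of the gene and the size of the library. A Dct threshold of 10 TPM split them into 15 pigment lineage cells (at or above it) and 42 glial lineage cells (below it). The other 505 cells with Trp63 under 10 TPM, called other Trp63-low cells below, served for comparison. The remaining 1052 cells had Trp63 at 10 TPM or more and are the epithelial majority of the study.

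The study traced where the stem cells of the hair follicle come from, using sorted cells of 7 embryonic stages between E11.5 and E17.0 on 18 plates. The mice carried a nuclear Kikume Green-Red protein, which turns from green to red under light. At E12.0 and later, single follicles were photo-converted whole, and red cells with surface ITGA6 (integrin alpha 6) and without CD31, an endothelial surface protein, were sorted 1 per well. At E11.5 the same gate was used without photo-conversion. The labels name no treatment or mutation. The library method was RamDA-seq, which reads total RNA along its whole length. All shares below are therefore shares of ITGA6-sorted cells, not of the follicle. The labels give each cell its stage, plate and well but no embryo, so each stage counts as 1 sample, and p-values measure the spread between stages.

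The neural crest is an embryonic cell population that leaves the dorsal neural tube and gives rise to the glia of peripheral nerves, to pigment cells and to many other cell types. Its glial and pigment derivatives both depend on the transcription factor Sox10. Schwann cell precursors travel along growing nerves under neuregulin signals received through Erbb2 and Erbb3. Melanoblasts, the pigment cell precursors, come from the crest directly or from such nerve-associated precursors. They enter the skin and the hair follicle under the control of Mitf and of the receptors Kit and Ednrb, and they switch on Dct early and other pigment enzymes later.

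The promoters of 4 melanosome genes carry a short motif that Mitf is known to bind in pigment enzyme genes, and they are shown as examples. Dct, a gene of the rule, divides the members, and the other 3 belong to the melanosome list described below. All 4 hold the motif, whereas only 7 of the 21 windows of that list do, so they do not represent the list. Each sequence is the 250 bases before the RefSeq transcription start, on the strand of the gene, 5′ to 3′, in build GRCm38.p6, with the 6-letter motif CATGTG, or CACATG, its form on the opposite strand, in capitals. The Dct window lies at chr14:118052247-118052496 on the minus strand, with motifs starting at -232 and -150. The Tyr window lies at chr7:87493513-87493762 on the minus strand, with a motif at -21. The Tyrp1 window lies at chr4:80833963-80834212 on the plus strand, with a motif at -46. The Trpm1 window, 1 of 2 listed for that gene, lies at chr7:64153585-64153834 on the plus strand, with a motif at -141.
Dct: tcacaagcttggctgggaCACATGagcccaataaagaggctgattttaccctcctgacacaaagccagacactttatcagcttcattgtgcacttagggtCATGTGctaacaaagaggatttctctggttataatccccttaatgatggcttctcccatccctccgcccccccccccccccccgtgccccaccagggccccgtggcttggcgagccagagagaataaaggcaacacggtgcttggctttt
Tyr: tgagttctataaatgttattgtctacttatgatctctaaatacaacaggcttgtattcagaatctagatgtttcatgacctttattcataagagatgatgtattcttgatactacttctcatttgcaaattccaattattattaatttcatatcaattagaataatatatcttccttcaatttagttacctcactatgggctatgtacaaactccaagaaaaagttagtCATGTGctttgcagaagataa
Tyrp1: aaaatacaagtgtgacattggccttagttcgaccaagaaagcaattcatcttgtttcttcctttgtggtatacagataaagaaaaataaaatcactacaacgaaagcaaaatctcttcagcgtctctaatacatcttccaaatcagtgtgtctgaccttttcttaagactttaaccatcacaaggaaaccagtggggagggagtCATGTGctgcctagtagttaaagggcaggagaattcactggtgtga
Trpm1: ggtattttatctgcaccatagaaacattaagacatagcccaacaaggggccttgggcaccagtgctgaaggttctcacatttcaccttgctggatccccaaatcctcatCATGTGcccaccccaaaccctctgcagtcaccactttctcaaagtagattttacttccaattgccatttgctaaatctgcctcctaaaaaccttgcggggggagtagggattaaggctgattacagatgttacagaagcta
Searched on both strands, the motif occurred in 4025 of 32851 such windows of the whole genome table, or 12.3%. Of the melanosome and pigment enzyme genes, 17 had windows, and 7 of their 21 windows (33.3%) held the motif; the genes were Cited1, Dct, Oca2, Slc24a5, Trpm1, Tyr and Tyrp1. Of the melanoblast regulators, 7 had windows, and 1 of their 14 windows (7.14%), of Mc1r, held it. Of the Schwann cell precursor and glial markers, 11 had windows, and none of their 12 windows held it. These are letter matches, and binding was not measured.

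The 57 cells made up 3.53% of all cells (exact 95% interval 2.69 to 4.55%) and 10.1% of the Trp63-low cells (7.77 to 12.9%). The classes had similar numbers of genes at 1 TPM or above, with medians of 17163 in pigment cells, 17359.5 in glial cells and 17681 in other Trp63-low cells. The levels of the 3 rule genes set the classes, so they are given as a description and not as support. Sox10 had a median of 221 TPM in the members and a maximum of 470 TPM, the lowest member had 31.3 TPM and the next 112 TPM, while the highest other Trp63-low cell had 3.33 TPM. No member exceeded 2.06 TPM of Trp63. Dct had a median of 1439 TPM in the pigment cells and a maximum of 2886 TPM, and the lowest pigment cells had 27.3 and 108.1 TPM, while the highest glial cell had 6.39 TPM.

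By stage, the Sox10-positive cells were 17 of 94 cells at E11.5 (18.1%, exact interval 10.9 to 27.4%), 0 of 276 at E12.0, 0 of 267 at E13.0, 5 of 181 at E13.5 (2.76%, 0.903 to 6.33%), 3 of 177 at E14.0 (1.69%, 0.351 to 4.87%), 17 of 350 at E15.0 (4.86%, 2.85 to 7.66%) and 15 of 269 at E17.0 (5.58%, 3.15 to 9.03%). With a limit of 3 cells, the counts of 0 allow shares of up to 1.09% at E12.0 and 1.12% at E13.0. The exact intervals reach 1.33% and 1.37%. At E12.0 only 7 cells were Trp63-low, whereas at E13.0 214 cells were, so for E13.0 the limit among Trp63-low cells was 1.40% (1.71% by the exact interval). All 214 had 10 TPM or more of Col1a1, a fibroblast collagen gene. Among the other Trp63-low cells, 1 of 16 at E13.5, 130 of 149 at E15.0 and 47 of 70 at E17.0 had that level. The part of this make-up in the count of 0 at E13.0 was not tested. Intervals and limits cover counting error only. The single E11.5 plate was also the only one that was not photo-converted, so stage, plate and photo-conversion cannot be told apart for it.

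Pigment lineage cells were found from E13.5 on and glial lineage cells at each of the 5 stages that held members. None of the 17 cells at E11.5 was in the pigment lineage, which allows a share of up to 19.5% by the exact interval. Pigment and glial cells numbered 1 and 4 at E13.5, 2 and 1 at E14.0, 5 and 12 at E15.0 and 7 and 8 at E17.0. The pigment share of the members was 29.4% at E15.0 (10.3 to 55.96%) and 46.7% at E17.0 (21.3 to 73.4%), so the intervals of these stages overlapped. The mix also differed between plates of 1 stage. At E17.0, plate 1 held 5 pigment and 1 glial cell, plate 2 held 2 and 2, and plate 3 held 0 and 5. At E15.0, the 4 plates held 0 and 4, 3 and 1, 1 and 4, and 1 and 3.

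**Figure D1:**
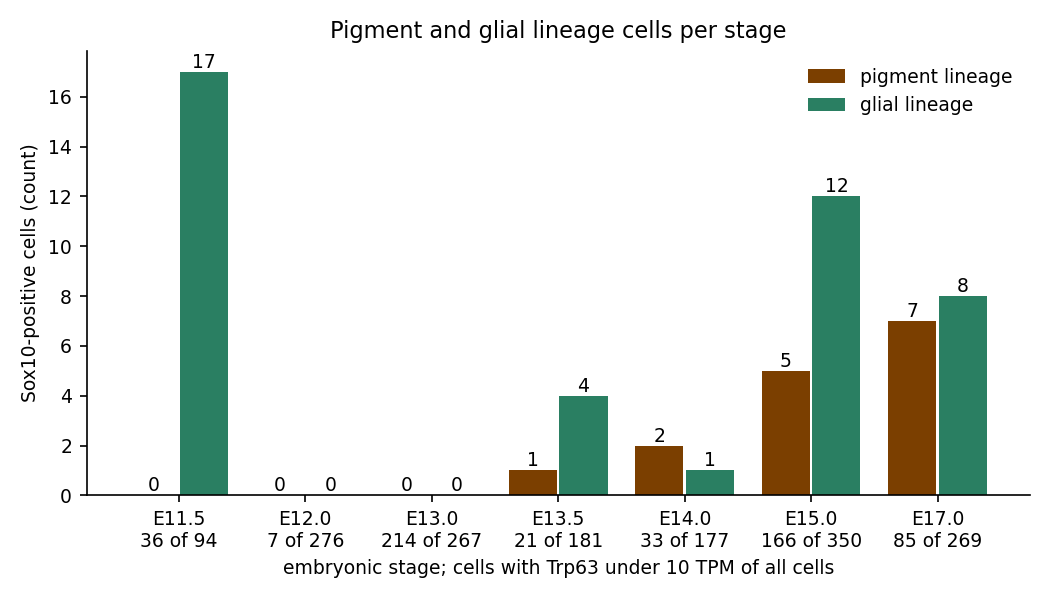
Bars give the number of pigment lineage (brown) and glial lineage (green) cells at each embryonic stage, with the Trp63-low cells and all cells of the stage under the axis. The E11.5 cells are all glial, no member was found at E12.0 or E13.0, and E17.0 has 7 pigment and 8 glial cells.

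The names of both lineages were checked against genes the rule did not use. Mitf, the master transcription factor of pigment cells, was at 10 TPM or more in 14 of 15 pigment cells and in 1 of 42 glial cells. Of the 20 Schwann cell precursor and glial markers, pigment cells had 3 to 17 at 10 TPM or more (median 4), and glial cells had 12 to 19 (median 16). Of the 22 melanosome and pigment enzymes in the table other than Dct, pigment cells had 6 to 20 at that level (median 16), and glial cells had 2 to 6 (median 4), so the lowest pigment cell met the highest glial cells. Foxd3, a transcription factor of neural crest and early glia, was at 10 TPM or more in all 42 glial cells and in none of the other Trp63-low cells. The tissue of origin of the cells was not traced by these markers.

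A single pigment cell went against its class. With 27.3 TPM of Dct, this E17.0 cell of plate 1 had 2.05 TPM of Pmel, 0 TPM of Mitf and 8.27 TPM of Kit. It had 24.2 TPM of Ngfr, 40.96 TPM of Gpr17 and 125 TPM of Gfra3, levels within the range of the glial cells. It is the only pigment cell with 10 TPM or more of Ngfr, and it is kept in the class by the rule.

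Markers of other cell types were mostly low in the members. Of 10 endothelial markers, 9 were at 10 TPM or more in no pigment cell and 8 in no glial cell, and their summed level was 4.34 to 94.6 TPM in pigment cells and 1.19 to 79.8 TPM in glial cells, against up to 5215 TPM in other Trp63-low cells. Of 10 immune markers, 10 and 9 were at 10 TPM or more in no pigment and no glial cell. The 11 basal epidermis markers other than Trp63 summed to 31.7 to 191.3 TPM in pigment cells and 0.620 to 147 TPM in glial cells, against 238.3 to 9532 TPM in Trp63-high cells. The 8 fibroblast markers summed to 0.537 to 476 TPM in pigment cells (median 3.15), 7.67 to 4862 TPM in glial cells (median 139) and a median of 3055 TPM in other Trp63-low cells. The fibroblast sum of the glial cells overlapped that of the other cells, through collagen genes described with the stages below. Col1a1, the defining collagen of fibroblasts, reached 10 TPM in 3 glial cells and in no pigment cell.

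Itga6, the mRNA of the sorted integrin, was at 10 TPM or more in 13 of 15 pigment cells, all 42 glial cells and 280 of 505 other Trp63-low cells. Its lowest, median and highest levels were 7.85, 35.4 and 268 TPM in pigment cells, 72.4, 239 and 421 TPM in glial cells and 0, 12.01 and 926 TPM in the other cells. The ranges overlapped, and the glial median was the highest of these classes.

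**Figure D2:**
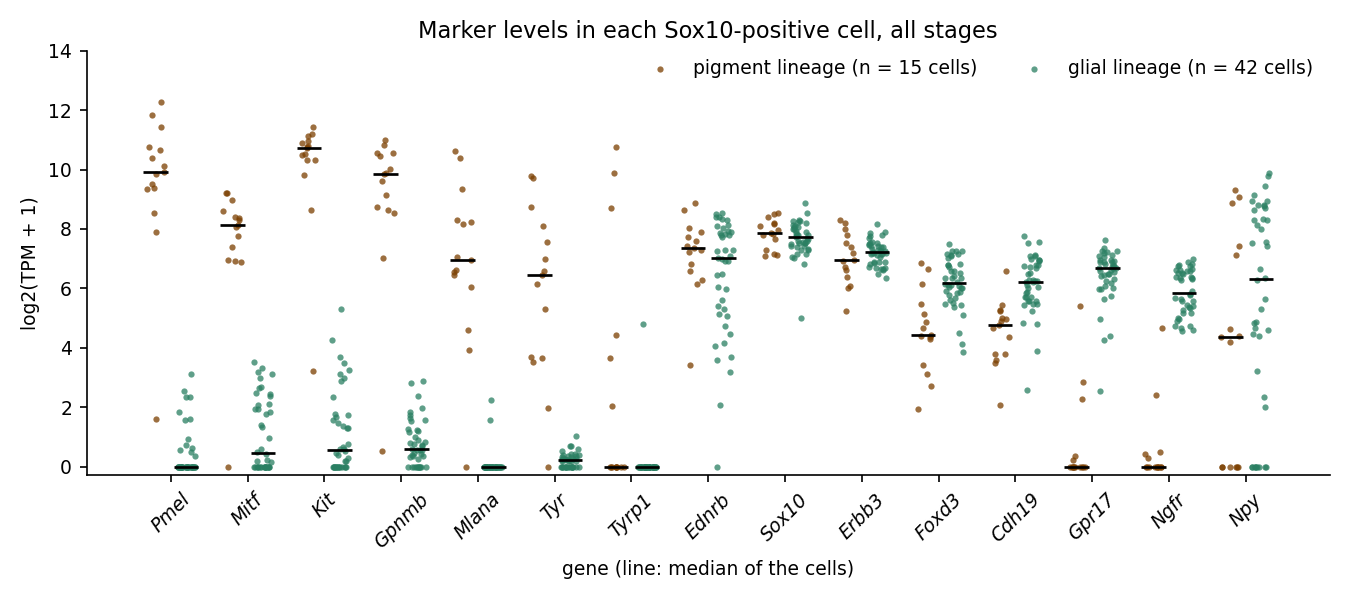
Each point is 1 cell, as log2(TPM + 1), with pigment lineage cells (brown, 15) left of glial lineage cells (green, 42) for each gene, and black lines give medians. Sox10, Erbb3 and Ednrb overlap between the lineages, whereas Pmel, Mitf and Kit are high in all pigment cells but 1 and Ngfr is at 22.4 TPM or more in every glial cell.

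The first comparison asked how Sox10-positive cells differ from the other Trp63-low cells of the same stages. Against 5.11% of all genes that passed in either direction, 16 of 20 glial markers and 3 of 9 neural crest regulators (Foxd3, Tfap2a and Tfap2b) were higher, and 10 of 10 endothelial and 4 of 8 fibroblast markers were lower. The test was limma on the difference of log2(mean TPM + 1) within each of 5 stages (57 Sox10-positive and 284 other cells), with Benjamini-Hochberg adjustment over 23989 genes; Sox10, Dct and Trp63 chose the cells and were left out. In all, 1225 genes passed an adjusted p of 0.05 (5.11%), of which 446 were higher (1.86%) and 779 were lower (3.25%), while 4883 genes had an unadjusted p under 0.05. The split and the total varied with the setting: averaging log2 values over cells gave 593 higher and 325 lower genes, and 470, 496 and 586 genes passed without E17.0, E15.0 and E14.0. The median difference of all genes was -0.07, and averages in the comparisons are means of stage means. The 284 other cells were mixed: Col1a1 at 10 TPM or more marked 74.6% of them, and Cdh5 at 10 TPM or more marked 15.5%. At E13.5 these genes marked 1 and 10 of 16 other cells. Xist, the RNA of the inactive X chromosome, was at 1 TPM or more in 2 of 17 members at E11.5, 1 of 5 at E13.5, 0 of 3 at E14.0, 10 of 17 at E15.0 and 0 of 15 at E17.0. Among the other cells of those stages it was so in 10 of 19, 0 of 16, 0 of 30, 43 of 149 and 4 of 70. The E13.5 member was near this cut, at 1.18 TPM of Xist, and 1 of the E15.0 members was at 5.94 TPM. The part of any mix of embryos in the differences was not tested.

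Receptors of crest migration were among the higher genes. Erbb3, the neuregulin receptor of Schwann cell precursors, averaged 126, 146, 110, 162 and 179 TPM in Sox10-positive cells at E11.5, E13.5 and E14.0 and then at E15.0 and E17.0, against 0.241, 0.494, 2.95, 3.01 and 2.15 TPM in the other cells. It was higher at every stage, by 5.86 on the log2 scale (SE 0.31, adjusted p = 0.00065). All 57 members but only 3.87% of the other cells of these stages had 10 TPM or more. Erbb3 is not particular to the crest derivatives here, since 797 of 1052 Trp63-high cells also had 10 TPM or more, with a median of 19.5 TPM. Ednrb, the endothelin receptor of melanoblasts and glia, averaged 165 TPM against 14.8 TPM and was higher by 3.68 (SE 0.39, adjusted p = 0.0059). Gfra3, the receptor of the neurotrophic factor artemin, averaged 48.6 TPM against 0.105 TPM and was higher by 5.33 (SE 0.32, adjusted p = 0.0010). Ligands and a receptor of the same list fell. Edn3, which encodes the ligand of Ednrb, averaged 0.0525 TPM in members against 5.67 TPM and fell by 2.38 (SE 0.38, adjusted p = 0.021), and Ntf3, a neurotrophin gene, fell by 2.81 (SE 0.53, adjusted p = 0.034). Ednra, another endothelin receptor gene, averaged 1.79 TPM against 33.8 TPM and fell by 3.62 (SE 0.36, adjusted p = 0.0048). Of 20 receptors and ligands tested, 5 rose and 3 fell, with a list median of 0.82. Kit (1.93, adjusted p = 0.24), Ngfr (2.19, adjusted p = 0.26) and Erbb2 (1.12, adjusted p = 0.13) did not pass. Kit was high mainly in pigment cells and Ngfr mainly in glial cells, as given below. Ret, a receptor of enteric crest cells, stayed under 10 TPM in every member.

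Of the gene lists, the glial one held the most higher genes. Of 20 Schwann cell precursor and glial markers tested, 16 rose and none fell, with a median of 3.18. Foxd3 averaged 80.6, 54.02, 57.8, 69.1 and 67.2 TPM in members by stage, while the other cells were listed at 0 at E11.5 and E13.5 and stayed at or under 0.0378 TPM later. No cell of 1 group reached the range of the other, and the difference was 6.03 (SE 0.17, adjusted p = 5.8e-05). Cdh19, an adhesion gene of Schwann cell precursors, averaged 72.3 TPM against 0.257 TPM and rose by 5.86 (SE 0.15, adjusted p = 5.6e-05). Of 10 genes of the myelin program tested 4 rose, S100b and Mbp (2.63, SE 0.24, adjusted p = 0.0038) among them, and the list median was 0.65. Of 15 adhesion genes tested, 7 rose, L1cam (3.80) and Cadm1 (3.58) among them, and 2 fell, with a median of 1.92.

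Other genes with large differences are less often listed as crest markers. Npy, a neuropeptide gene, averaged 159 TPM against 1.37 TPM and rose by 6.05 (SE 0.55, adjusted p = 0.0036). Megf10, an engulfment receptor gene, rose by 5.86 (SE 0.35, adjusted p = 0.0010). Gpr17, a receptor gene known from oligodendrocyte precursors, averaged 65.1 TPM against 0.0971 TPM and rose by 5.79 (SE 0.29, adjusted p = 0.00056). Insc, whose protein orients the mitotic spindle, averaged 91.2 TPM against 0.951 TPM and rose by 5.58 (SE 0.20, adjusted p = 0.00019). Npy was 1 of 11 neuron markers tested and the only one to rise, while Stmn2 fell. Pmel, a fibril protein of melanosomes, had the largest mean difference at 6.56 (SE 1.24, adjusted p = 0.035), with stage differences from 0.96 to 9.40, and did not pass in 9 of 18 alternative settings. Of 22 melanosome genes 3 rose, Pmel, Rab38 and Syngr1, with a median of 2.42.

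Genes that were lower in the members included genes of the dermis and the vessels. Of 8 fibroblast and 8 dermal papilla markers 4 and 4 fell, with medians of -3.91 and -2.33. Col1a1 averaged 3.22 TPM against 898 TPM and fell by 7.45 (SE 0.65, adjusted p = 0.0034). Twist1, a mesenchymal transcription factor, fell by 5.94 (SE 0.71, adjusted p = 0.0082). Cyp26b1, which breaks down retinoic acid, averaged 0.902 TPM against 89.7 TPM and fell by 5.56 (SE 0.17, adjusted p = 7.1e-05). None of these 3 passed when the other cells were limited to those under 10 TPM of Col1a1, where Col1a1 was 0.63. For Col1a1 itself this limit allowed no large fall. Cdh5, the cadherin of endothelium, fell by 6.68 (SE 0.52, adjusted p = 0.0025), and 10 of 10 endothelial markers fell, with a median of -4.40. Only 15.5% of the other cells of the 5 stages had 10 TPM or more of Cdh5, and Cdh5 did not pass when log2 values were averaged over cells. Igf2, the fetal growth factor gene, averaged 6.77 TPM against 599 TPM and fell by 6.44 (SE 0.27, adjusted p = 0.00029), and it passed in all 18 settings. H19, transcribed from the same imprinted region as Igf2, fell by 4.09 (SE 0.73, adjusted p = 0.030), and Dlk1, another imprinted gene, fell by 3.75 (SE 0.58, adjusted p = 0.019). These 3 were the genes of the heterochronic and fetal growth list that fell, of 10 tested. Of 15 S phase genes and 15 G2/M genes none passed, with medians of -0.28 and -1.08.

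**Figure D3:**
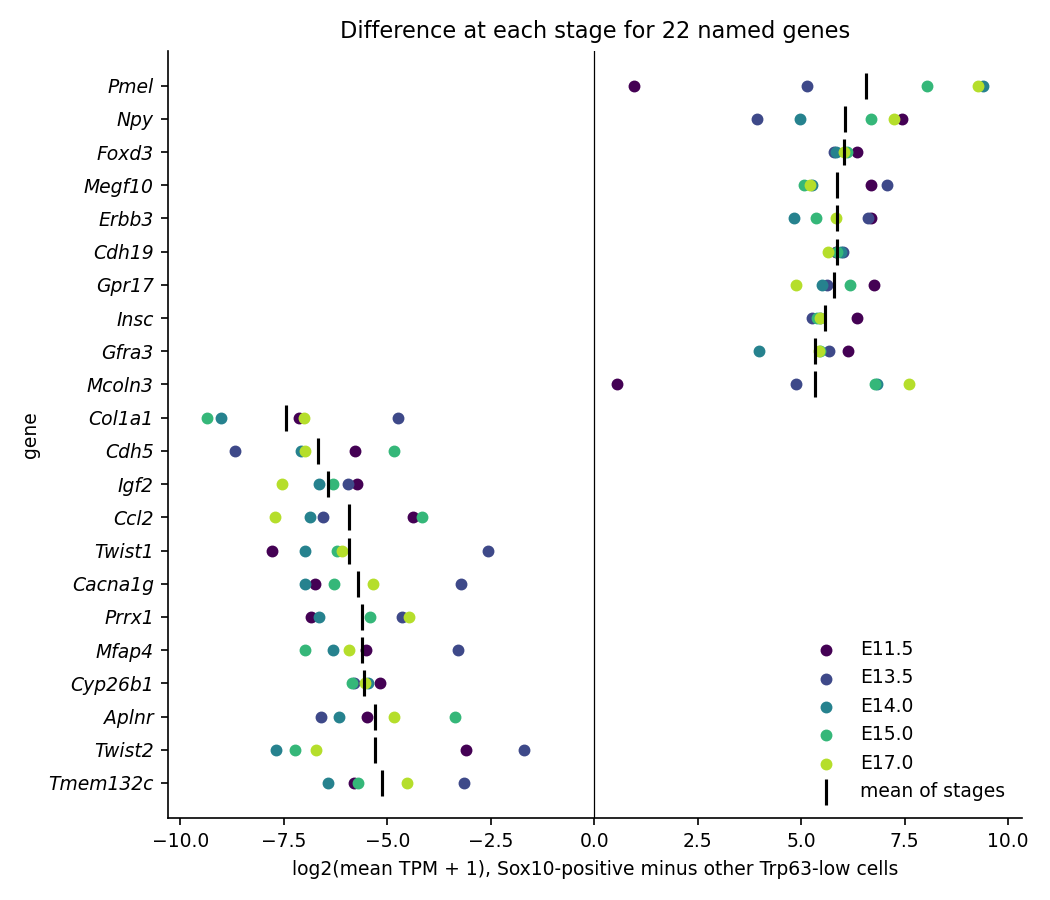
Points give the difference in log2(mean TPM + 1) between Sox10-positive and other Trp63-low cells at each of 5 stages for 22 genes named by the rule, and bars mark the mean of the stages. Foxd3 varies little between stages (5.78 to 6.35), whereas Pmel runs from 0.96 at E11.5 to 9.40.

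Against the same other cells, the glial lineage alone was tested over 4 stages with 41 glial and 254 other cells. In the same test, 615 of 23899 genes passed (2.57%; 1.21% of genes higher and 1.37%, or 327 genes, lower), while 4183 had an unadjusted p under 0.05. Averaging log2 values over cells gave 475 higher and 113 lower genes, and 138, 77 and 73 genes passed without E11.5, E15.0 and E17.0. The cells are largely those of the first comparison, and 522 genes passed in both, 84.9% of the 615 and 42.6% of the 1225. Glial markers led again, with 15 of 20 higher and none lower and a median of 3.77. Lgi4, a secreted protein gene required for peripheral myelination, averaged 49.2, 50.1, 68.3 and 158.1 TPM in glial cells by stage, against 0.419, 0.394, 1.21 and 1.06 TPM, and rose by 5.39 (SE 0.27, adjusted p = 0.0032). Fabp7, the lipid binding protein gene of early glia, averaged 36.8, 22.1, 58.8 and 46.4 TPM against at most 0.133 TPM and rose by 5.22 (SE 0.27, adjusted p = 0.0032). Moxd1, a monooxygenase-like gene known in crest cells, rose by 6.04 (SE 0.35, adjusted p = 0.0039), and Gfra3 rose by 6.02 (SE 0.17, adjusted p = 0.00077).

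Some genes that readers may look for in Schwann cell precursors did not separate from the other cells. Ngfr, the low-affinity neurotrophin receptor, was at 22.4, 57.1 and 125 TPM (lowest, median, highest) in the 42 glial cells but also at 10 TPM or more in 34.5% of the 505 other cells, and its difference of 3.41 did not pass (adjusted p = 0.087). Sox2, a transcription factor of immature glia and of the dermal papilla, averaged 19.2, 77.2, 27.8 and 32.2 TPM in glial cells against 0.259, 13.8, 31.1 and 43.1 TPM, with a difference of 1.46 (adjusted p = 0.43). Kit, at -4.44, was also past no threshold (adjusted p = 0.069). Top2a, needed in mitosis, was the only one of 15 G2/M genes to pass and fell by 1.66 (SE 0.18, adjusted p = 0.019), at 22.5, 8.50, 13.9 and 14.4 TPM in glial cells against 85.2, 25.1, 58.5 and 37.6 TPM. It was at 0.043 against other cells under 10 TPM of Col1a1.

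Pigment and glial cells were compared within E15.0 (5 and 12 cells) and E17.0 (7 and 8 cells), the stages with at least 3 of each. With only 2 stages no test was made. A gene counts here as different when the log2 difference was 2 or more in size and of 1 sign in both stages, with a mean of 20 TPM or more in the higher class, and 365 of 23127 genes did so (1.58%), 185 higher in pigment cells (0.800%) and 180 lower (0.778%). Averaging log2 values over cells gave 129 higher and 198 lower genes. The median difference of all genes was -0.03. Xist at 1 TPM or more was seen in 4 of 5 pigment and 6 of 12 glial cells at E15.0 and in 0 of 7 and 0 of 8 at E17.0; its part was not tested.

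Most pigment enzyme and melanosome genes had higher means in the pigment cells. Of 22 such genes, 17 were higher and none lower, with a median of 4.90, although the means of Tyrp1, Oca2 and Slc24a4 came mainly from 3 cells described below. Pmel was at 1107, 1344, 667, 2788 and 371 TPM in the 5 pigment cells at E15.0, against at most 4.02 TPM in the 12 glial cells. At E17.0 it was at 2.05, 916 and 4897 TPM (lowest, median, highest) in pigment cells, against 0, 0.207 and 2.04 TPM in glial cells. The groups did not overlap at either stage, although the cell with 2.05 TPM came within 0.1 TPM of the highest glial cell, and the mean difference was 10.08. Mlana, a melanosomal protein gene, averaged 364 TPM against 0.156 TPM (8.26), and Gpnmb, a melanosomal glycoprotein gene, averaged 911 TPM against 1.25 TPM (8.61). Tyr, the first enzyme of melanin synthesis, averaged 217 TPM against 0.201 TPM (7.45). Gpr143, a melanosomal receptor gene, averaged 66.8 TPM in pigment cells and was listed at 0 in every glial cell. Trpm1, an ion channel gene of melanocytes, averaged 929 TPM against 9.71 TPM (6.42). Genes of melanosome transport were higher by less, with Rab27a at 5.03, Mlph at 4.30 and Myo5a at 3.12. Rab38 (0.58) and Cited1 (-0.08) of this list did not differ by the threshold.

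Some regulators and receptors of melanoblasts were higher as well. Mitf averaged 284 TPM in pigment cells against 2.51 TPM in glial cells (6.31). Kit, the receptor that melanoblasts need to survive and migrate, averaged 1427 TPM against 1.79 TPM (9.11), and in single cells of all stages it was at 8.27, 1695 and 2766 TPM (lowest, median, highest) against 0, 0.468 and 38.1 TPM. Pax3, a crest factor upstream of Mitf, was shared but higher in pigment cells (2.16), with 10.9 to 289 TPM against 0.532 to 148 TPM over all stages. Of 10 melanoblast regulators tested 5 were higher, Mitf, Kit, Pax3, Met and Gpr143, and none was lower. Ednrb was not among them, at 9.63, 163 and 473 TPM in pigment cells against 0, 128 and 370 TPM in glial cells (0.58).

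Less familiar genes also marked the pigment cells. Mcoln3, a lysosomal ion channel gene, averaged 483 TPM against 0.0497 TPM (8.85), Slc6a17, a transporter gene known from synaptic vesicles, averaged 302 TPM against 0.699 TPM (7.51), and Gucy1a3, a subunit of the nitric oxide receptor, averaged 103 TPM against 0.411 TPM (6.10). Ptgds, a prostaglandin synthase gene, averaged 417 TPM in pigment cells and was listed at 0 in all glial cells at E17.0. Of 6 satellite and enteric glia markers tested, Apoe (2.82) and Glul (2.47) were higher in the pigment cells, Ptn was lower (-5.27) and 3 met the threshold in neither direction, with a median of -0.48.

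Cadherins differed in opposite directions between the lineages. Cdh1, the cadherin of epithelia, was at 0.498, 77.1 and 181 TPM in pigment cells of all stages against 0, 0 and 4.80 TPM in glial cells (5.33 over both stages). Cdh3, another epithelial cadherin, was at 0.640, 80.7 and 223 TPM against 0, 0.218 and 1.90 TPM (6.14). Cdh2, the neural cadherin, was at 0, 7.60 and 77.2 TPM against 28.1, 91.2 and 211 TPM (-2.99), and Cdh6 at 0, 0 and 125 TPM against 65.2, 198 and 465 TPM (-4.17). Cdh1 is also an epidermal marker, and no pigment cell reached 10 TPM in 8 of the 11 basal epidermis markers other than Trp63.

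Some glial genes were low in the pigment cells and others did not differ by the threshold. Erbb3 averaged 165 TPM in pigment cells against 173.9 TPM in glial cells (-0.08), and Insc differed by 0.84, both short of the threshold. Foxd3, at -1.74, was also short of it, but averaged 13.05 TPM against 92.5 TPM at E15.0 and 48.97 TPM against 83.2 TPM at E17.0. Ngfr averaged 1.80 TPM against 51.3 TPM (-4.58), and Gap43, a growth cone protein gene, was at -4.58. In pigment cells the Ngfr mean comes mainly from the single E17.0 cell with 27.3 TPM of Dct. Of 20 Schwann cell precursor and glial markers 6 were lower, Sox2, Gap43, Cadm4, Lgi4 and Moxd1 among them, with a list median of -2.98. Gfra1, a receptor subunit for GDNF, was at 0, 2.52 and 104 TPM against 18.6, 95.8 and 301 TPM (-3.70).

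Some matrix and growth genes were low in pigment cells as well. Col3a1 averaged 16.9 TPM against 657 TPM (-6.13), Col6a3, a collagen VI chain gene, differed by -4.70, and the growth factor gene Ptn averaged 3.53 TPM against 190.5 TPM (-5.27). Of 12 basement membrane genes 4 were lower, Col4a1, Col4a2, Lama2 and Nid2, with a median of -2.15. Mest, an imprinted growth gene, was at 0, 0.833 and 721 TPM in pigment cells of all stages, against 227, 1166 and 2587 TPM in glial cells (-5.61 over both stages). Mest was below 10 TPM in 12 of 15 pigment cells and in no glial cell.

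The pigment cells also differed among themselves. Melanin enzymes were uneven: Tyrp1, a late enzyme of melanin synthesis, was at 418 TPM in 1 E15.0 cell and at 1714 and 947 TPM in 2 E17.0 cells of plate 2, and at 0 to 20.5 TPM in the other 11 cells with 10 TPM or more of Pmel. This division was seen in the values and carries no test. The same 3 cells had 49.6 to 495 TPM of Oca2, a melanosomal transporter gene listed at 0 in the 11, and 85.8 to 338 TPM of Slc24a4 against at most 2.43 TPM. Their Pmel (2788 to 4897 TPM) lay above the range of the 11 (239 to 1713 TPM), as did their Tyr (421 to 888 TPM, against 2.96 to 275 TPM). Kit was at 393, 899 and 1483 TPM in the 3 cells and at 1289 to 2766 TPM in the 11. Mitf overlapped, at 264 to 595 TPM against 117 to 594 TPM.

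The earliest pigment cell, from E13.5, had 108.1 TPM of Dct, 313 TPM of Mitf, 2766 TPM of Kit, 239 TPM of Pmel and 38.8 TPM of Tyr, with Tyrp1 listed at 0. It had 163 TPM of Mki67 and 309 TPM of Top2a, which mark dividing cells. At E14.0 the 2 pigment cells had 469 and 1004 TPM of Dct and 967 and 1713 TPM of Pmel. Mki67 was at 10 TPM or more in 2 of the 15 pigment cells and in neither of the E15.0 and E17.0 groups, where it stayed at or under 3.79 TPM.

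In the glial cells, E17.0 was set against E11.5 (8 and 17 cells), with 4 and 12 cells at E13.5 and E15.0 between them. The stages are 1 sample each and E11.5 is a single plate sorted without photo-conversion, so no test was made. Glial cells at E17.0 had a median of 17376.5 genes at 1 TPM or more against 16199 at E11.5, and Xist was at 1 TPM or more in 0 of 8 against 2 of 17; the part of either was not tested. By the same threshold 490 of 22765 genes differed (2.15%), 395 higher at E17.0 (1.74%) and 95 lower (0.417%). Averaging log2 values over cells gave 242 higher and 122 lower genes. The median of all genes was 0.28.

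Few genes of the crest and glial lists met the threshold between the stages, and the lists are too short for this to show that they were stable. Foxd3 averaged 80.6, 50.2, 92.5 and 83.2 TPM at E11.5, E13.5, E15.0 and E17.0. None of 8 neural crest regulators differed by the threshold. Of 20 glial markers 2 were higher, Dhh (2.64), a hedgehog signal of Schwann cells, and Entpd2 (3.32), an ectonucleotidase gene, with a median of 0.49. Dhh averaged 2.84, 7.75, 6.19 and 22.9 TPM by stage. Pmp22, a peripheral myelin gene, was the only member of the myelin list to be higher (3.58). It was at 47.99, 73.6 and 162 TPM (lowest, median, highest) at E17.0 against 0, 4.33 and 28.6 TPM at E11.5, so the stages did not overlap. Mbp and Egr2, a driver of myelination, reached 10 TPM in 13 and 7 of the 42 glial cells.

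The 6 largest differences among the higher genes named by the rule were those of Col6a3, Ptn, Fras1, Aatk, a kinase gene (6.40), Tnc and Emp1, a membrane protein gene (6.16). Col6a3 was at 56.2, 370 and 585 TPM at E17.0 against 0, 0 and 4.03 TPM at E11.5 (7.81), with means of 0.490, 0, 128 and 333 TPM over the 4 stages. Ptn was at 50.5, 188 and 973 TPM against 0, 0.457 and 11.3 TPM (6.81), with means of 2.03, 4.49, 40.5 and 341 TPM. Neither gene overlapped between E17.0 and E11.5. Tnc (6.24), a matrix glycoprotein gene, and Fras1 (6.64) and Frem2 (5.35), which act at basement membranes, were also higher. Of 15 integrin subunits 5 were higher, Itga1, Itga7, Itgb3, Itgb4 and Itgb5. Col3a1 averaged 45.6, 426, 342 and 973 TPM by stage. Of 6 fibroblast markers tested 3 were higher, with a median of 3.17, and Col1a1 averaged 24.6 TPM against 0.868 TPM, mainly through 1 cell with 180 TPM. The fibroblast receptor gene Pdgfra averaged 0.898 TPM at E17.0 against 0.489 TPM at E11.5, and the mesenchymal transcription factor gene Prrx1 8.07 TPM against 0.535 TPM. The part of RNA from fibroblasts was not tested.

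Some genes of proliferation and of early embryonic stages were lower at E17.0, a minority of each list. Hmga2, a chromatin protein gene of early tissues, was at 0, 0.799 and 26.2 TPM at E17.0 against 57.9, 197 and 319 TPM at E11.5 (-4.81), with no overlap and with means of 183, 62.7, 25.2 and 5.57 TPM over the 4 stages. Igf2bp1, an RNA-binding protein gene of fetal tissues, averaged 78.3, 74.2, 28.2 and 18.7 TPM (-2.01), and H19 was at -3.41; these made up the 3 lower genes of 9 in the heterochronic list. Mest averaged 1763, 1264, 953 and 586 TPM and its difference of -1.59 was short of the threshold. Of 15 S phase genes 3 were lower, Rrm2 (-4.01), Cdt1 and Uhrf1, and of 15 G2/M genes 1 was, Bub1 (-3.38). Rrm2 averaged 101, 3.25, 4.69 and 5.32 TPM, whereas Mki67 averaged 21.8, 9.18, 9.78 and 20.3 TPM. Cdkn1a, an inhibitor of the cell cycle, was higher (4.74), at 0.127, 4.46, 3.31 and 29.2 TPM by stage.

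Further genes that were lower at E17.0 include regulators of axons and retinoid response. Crmp1, which encodes a semaphorin signal mediator, was at 0, 0 and 4.42 TPM against 22.1, 81.1 and 230 TPM (-5.83), with means of 93.5, 42.2, 18.2 and 0.665 TPM over the stages. Crabp2, a retinoic acid binding protein gene, averaged 0.780 TPM against 56.7 TPM (-5.02). Tfap2c, a transcription factor of early ectoderm and crest, averaged 1.18 TPM against 20.9 TPM (-3.33), and Id1, an inhibitor of differentiation factors, 0.539 TPM against 23.4 TPM (-3.99). Both were at or under 4.55 TPM on average from E13.5 on.

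**Figure D4:**
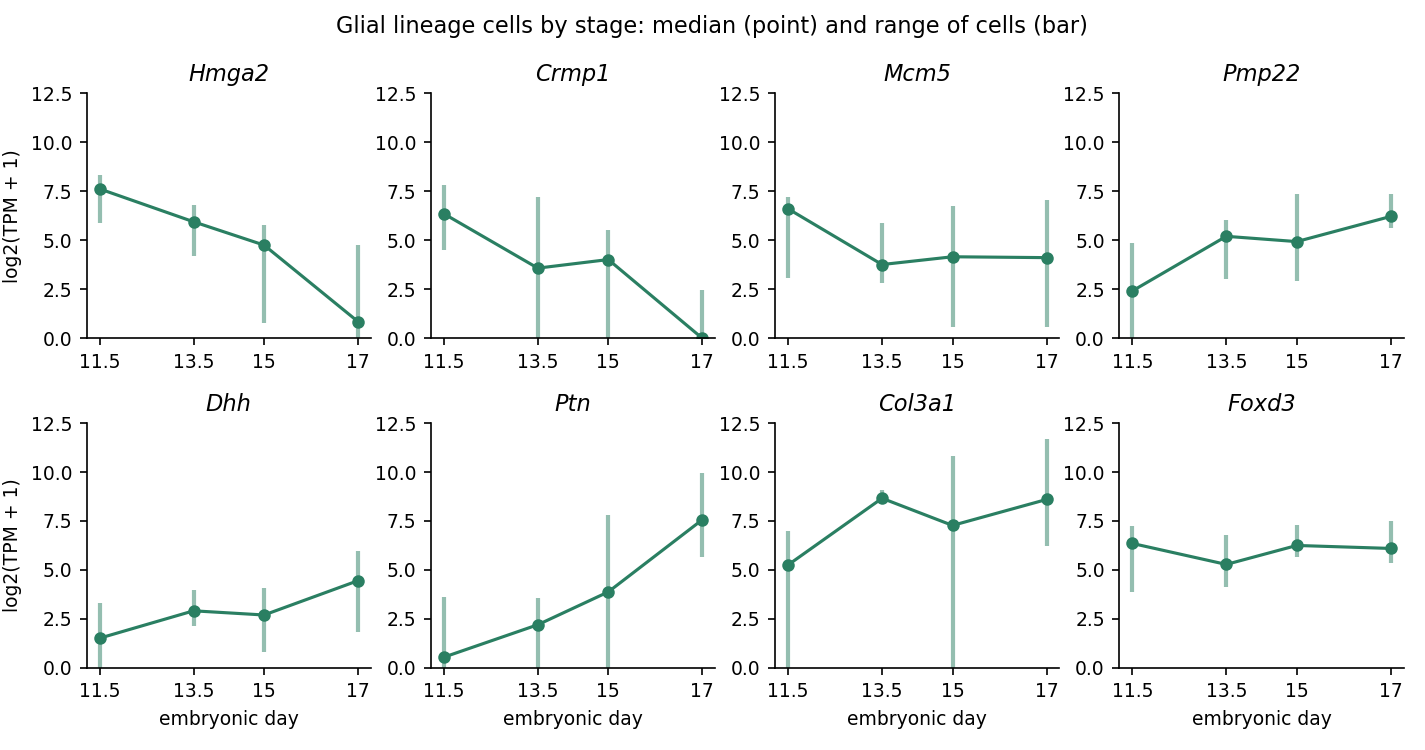
Points give the median and bars the lowest to highest glial lineage cell, as log2(TPM + 1), at E11.5, E13.5, E15.0 and E17.0 (17, 4, 12 and 8 cells) for 8 genes. Hmga2 and Crmp1 are lower and Pmp22 and Ptn higher at E17.0 without overlap with E11.5, whereas Foxd3 stays within 13.46 to 179 TPM.

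Within a stage, glial cells ranged between high Ednrb and high Npy. Ednrb was at 0, 128 and 370 TPM (lowest, median, highest) and Npy at 0, 78.7 and 937 TPM over the 42 cells. Npy was under 10 TPM in 12 cells and at 10 TPM or more in 30, with 2 and 15 such cells at E11.5, 2 and 2 at E13.5, 0 and 1 at E14.0, 5 and 7 at E15.0 and 3 and 5 at E17.0. After centring within stage, the correlation of log2(TPM + 1) for Ednrb and Npy over the 42 cells was -0.76, with -0.65, -0.76 and -0.89 within E11.5, E15.0 and E17.0. The cells share plates and stages, so these correlations are descriptions. The pattern and the genes given with it were noticed in the values, and no groups were tested.

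The genes that moved with Ednrb include receptors and matrix. Gfra3 followed it most closely of the 11 genes looked at, with r = 0.85 over all and 0.92, 0.76 and 0.97 within E11.5, E15.0 and E17.0. Cnp, an early myelin enzyme gene, had r = 0.78, Igfbp5, an insulin-like growth factor binding protein gene, 0.74 and Lamb1, a laminin chain, 0.70. Ednrb was at 126 to 370 TPM in the cells with Npy under 10 TPM (median 267) and at 0 to 366 TPM in the others (median 63.2), so the ranges overlapped at the high end of Ednrb. Cnp was at 44.3 to 221 TPM (median 78.9) and 3.17 to 160 TPM (median 23.6) in these cells.

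Genes that moved against Ednrb were Etv1, an ETS factor gene (r = -0.69), Lef1, a Wnt effector (-0.68), and Fabp7 (-0.46). For Fabp7 this came mainly from E17.0, with r of -0.06, -0.27 and -0.84 within E11.5, E15.0 and E17.0, whereas Lef1 had -0.78, -0.70 and -0.79. Lef1 was at 4.95 to 99.7 TPM in the cells with Npy under 10 TPM (median 69.2) and at 8.23 to 700 TPM in the others (median 143). Mki67 had medians of 0 and 2.45 TPM, with ranges of 0 to 27.6 and 0 to 162 TPM that overlapped. Foxd3 and Sox10, present in all glial cells, had r of 0.02 and 0.22 with Ednrb over all stages, but Foxd3 had -0.38, 0.24 and 0.64 and Sox10 had 0.15, 0.56 and 0.45 within E11.5, E15.0 and E17.0. Erbb3 had -0.40 over all. The count of genes reaching 1 TPM had r = 0.30 with Ednrb, and its part was not tested.

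**Figure D5:**
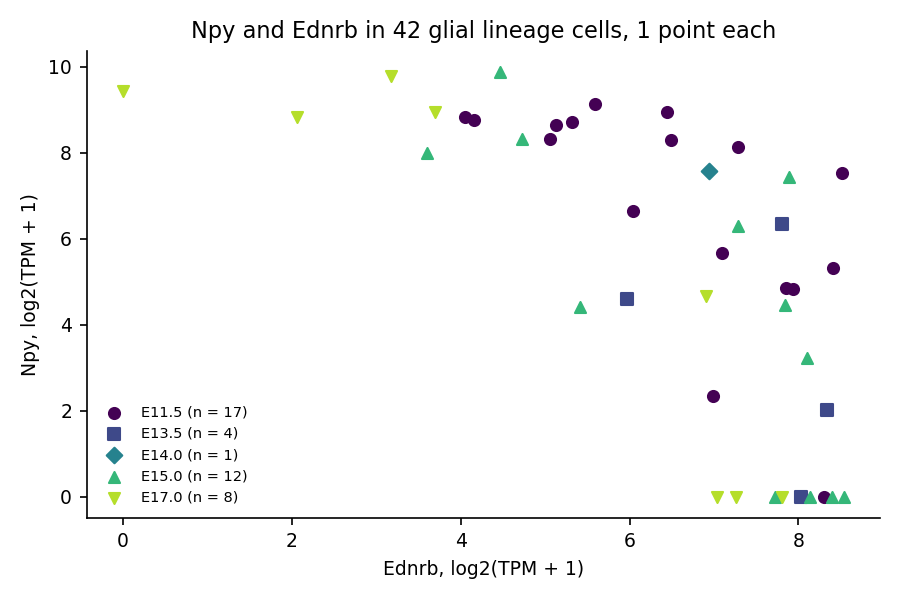
Each point is 1 of the 42 glial lineage cells, with Ednrb across and Npy up, as log2(TPM + 1), and colour and shape give the stage. Npy is high in the cells with the least Ednrb, and the 12 cells with Npy under 10 TPM all have 126 TPM or more of Ednrb, at E11.5 as at the later stages.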

How the data were processed

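Each of the 1614 cells is 1 deposited record, and the tests use stages as their units. The 52 of 1666 labelled cells marked as low quality were not analysed here, and 0 table columns were left unused. The deposited table holds TPM that the authors had summed over the genes sharing a symbol (49662 symbols; column totals 991213 to 999516). The submitters' processing notes name build mm10, the aligner HISAT2 2.0.4, Subread 1.5.0 with featureCounts, and bcl2fastq 1.0; annotation release and strand use are not given in the sources used here. TPM keeps no depth, so depth is unknown. Cells were sorted singly and no doublet caller was run.

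TPM was averaged over the cells of a class and stage (at least 3 cells of each), and the difference of log2(mean + 1) was tested over stages with limma 3.58.1 in R 4.3.3 (trend on, two-sided, Benjamini-Hochberg 0.05), on genes whose class means averaged 1 TPM or more. A fold on this scale understates the change of low genes. Correlations and counts used pandas 2.3.3, scipy 1.17.1 and numpy 2.4.6 under Python 3.11.15, and plots used matplotlib 3.10.9. Shares have exact Clopper-Pearson 95% intervals, and a count of 0 has a limit of 3 cells. The fit was tested on simulated data. A planned trend over stages needed 5 stages with 3 glial cells, and 4 had them, so E17.0 and E11.5 are given as values. Named genes are the 12 largest differences each way with a higher mean of at least 20 TPM, and, where untested, 10 TPM or more in at least 50% of the cells of the higher class and at most 10% of the other, plus members of 25 gene lists (330 of 331 members in the table). Members and lists were chosen with earlier results of these data known. Some genes that this rule names are not reported here. Promoter windows come from RefSeq. Alternatives are under the dependence on processing.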

Additional observations from a re-analysis of the deposited data

Results flagged for a closer look

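Of 48 sets of stage differences looked at, 3 held a stage far from the rest, and chance flags about 1 in 20 such sets. For Insc in Sox10-positive against other Trp63-low cells, E11.5 was at 6.35 on the log2 scale and the other stages at 5.26 to 5.45. For Npy in glial against other Trp63-low cells, E13.5, with 4 glial cells, was at 2.89 and the other stages at 6.82 to 7.60. For Igf2 in the same comparison, E17.0 was at -7.51 and the other stages at -5.96 to -5.67.

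Pigment and crest genes were also seen outside the members. Among Trp63-high cells, 46 of 1052 had Dct at 10 TPM or more (4.37%, exact interval 3.22 to 5.79%). They had 10.1 to 43.1 TPM (median 14.5), 24 of them at E17.0 (13.04% of that stage) and 0 at E11.5 and E12.0. None had 10 TPM or more of Sox10, Pmel, Tyr or Ptgds, while 17 had Kit and 3 had Mitf at that level. Sox10 at 10 TPM or more was found in 6 Trp63-high cells (0.570%), at 10.2 to 19.7 TPM, below the lowest member. These 6 had 67.7 to 312 TPM of Trp63 and 117 to 906 TPM of Krt5, with Foxd3 listed at 0.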

How the results depend on the processing

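Counts of genes varied with the setting. Sox10-positive against other Trp63-low cells gave 1225 genes, 751 with a mean filter of 10 TPM, 440 with no filter, 586 with at least 5 cells per class and stage, and 470 (without E17.0), 496 (without E15.0) and 586 (without E14.0) to 1256 (without E13.5) when a stage was left out; fewer stages enter these. Glial against other cells gave 615 genes, 247 with a pseudocount of 5 TPM, 49 with no filter, 73 to 613 with a stage left out (138 without E11.5, 77 without E15.0, 73 without E17.0) and 1156 against other cells under 10 TPM of Col1a1, an alternative chosen after seeing the data. Pigment against glial cells gave 365 genes, 235 with a pseudocount of 5 TPM, 662 after rescaling to protein-coding genes, 650 to 738 with 1 stage alone, and 11 with a Dct threshold of 1 TPM, which brings in 3 stages. E17.0 against E11.5 gave 490 genes, 307 with a pseudocount of 5 TPM and 1113 after rescaling, and 490 without E13.5 or E15.0, which do not enter; without E11.5 or E17.0 there is no value. Rescaling raises all values, so more genes reach 20 TPM. Averaging log2 values over cells turned the split of higher and lower genes to 593 and 325 (446 and 779 on means), 475 and 113 (615 in all, 327 of them lower), 129 and 198 (185 and 180) and 242 and 122 (395 and 95) in the 4 comparisons; the cause was not tested. The E13.0 share was 1.87% with Sox10 at 1 TPM or more. Directions reversed for Jag2 (0.11) and Egfl7 (0.93, and 0.42 for glial cells) against other cells with Col1a1 at 10 TPM or more. They also reversed for Col1a1 (0.63, and 1.13 for glial cells) and for Top2a in glial cells (0.043) against those under it. For Col1a1 itself that filter removed the cells with high levels, so a large fall was not possible. Leaving out E15.0 plate 1, chosen after seeing the data, gave 1311, 717, 366 and 490 genes. That plate held 79 Trp63-low cells of 90, against 31 of 86, 28 of 86 and 28 of 88 on plates 2, 3 and 4. It gave 75 of the 149 other Trp63-low cells of E15.0. Leaving out the pigment cell with Pmel under 10 TPM, likewise chosen after seeing the data, gave 472 genes for pigment against glial cells. Of the planned values of named genes and list members, 269 of 1461 lost the threshold in the first comparison, 338 of 1124 in the second, 24 in the third and 9 of 257 in the fourth, and none gained it. No paired analysis was possible because the labels number no replicates, beyond the differences within stages that the tests already use; on matched plates these gave 1273 and 645 genes. Few cells per stage and 1 sample per stage limit all values.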

Other observations

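Semaphorin and guidance genes were also uneven in the Sox10-positive cells, with 6 of 20 higher and 4 lower than in the other Trp63-low cells by limma with Benjamini-Hochberg adjustment. Over all genes of that comparison 1.86% were higher and 3.25% lower, shares that also apply to its Notch and stress lists below. Sema3b, a secreted guidance signal gene, rose by 3.84 (adjusted p = 0.0015), and Sema3c rose by 3.34 (adjusted p = 0.020). Between E17.0 and E11.5 glial cells, 3 of these 20 genes were higher by the threshold used without a test, against 1.74% of all genes. They were Sema3b (2.19), Sema3d (2.26) and the receptor gene Robo2. Of 12 Notch pathway genes tested by limma in Sox10-positive against other Trp63-low cells, Heyl, a Notch target, rose by 3.43 (SE 0.70, adjusted p = 0.044). Jag2 (-2.20) and Dll4, which encode ligands, fell. For the glial cells alone against the other cells, Dll4 was at -5.07 and Jag2 was not among the lower genes. Of 10 dissociation stress genes, Junb, Atf3 and Dusp1 fell in the first comparison.

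The border between the lineages was not empty. Of the 42 glial cells, 6 had Dct between 1 and 10 TPM, 3 at E11.5, 2 at E13.5 and 1 at E17.0, and 1 glial cell at E17.0 had 26.7 TPM of Tyrp1.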
